A study of Mus musculus with 10 samples.

Results

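Chromosome 19 around Emx2, a homeobox transcription factor gene of the dorsal telencephalon, was described gene by gene in embryonic cortex labelled as Emx2 knockout or wild type. The members are the genes on mouse chromosome 19 whose start lies within 10 Mb of the Emx2 start in the GENCODE M21 annotation of GRCm38, matched by Ensembl identifier. Emx2 itself, its antisense neighbour Emx2os and a further gene not reported here were left out. The members number 160 of the 56748 identifiers in the files. RNA-seq read counts per gene came from 5 cortex libraries labelled Emx2 KO and 5 labelled WT, all from mouse embryos at E12.5, a day of gestation when the cortex is making its early neurons. The labels give neither the strain nor the knockout allele. Nothing in them ties each library to its own embryo, and the p-values therefore speak for the scatter of these libraries alone, part of which may be technical. Levels are given in CPM, read counts scaled to the library total, and changes as the log2 of knockout over wild type ± SE.

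Genes that lie side by side on a chromosome share inheritance and may share regulatory DNA. A deletion made in 1 gene is passed on together with the stretch of chromosome that surrounds it, and enhancers can act on more than 1 promoter in their neighbourhood. In these groups the loss of Emx2 and any other difference carried on the same stretch of chromosome 19 cannot be told apart. Emx2 lies close to the far end of the chromosome, so the window is lopsided: 124 members lie before Emx2, out to 9.90 Mb, and 36 after it, where the farthest starts at 1.85 Mb.

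Total counts ran from 9720840 to 35674113 per library, with 5 large libraries (3 knockout, 2 wild type, the smallest of 24856930 counts) and 5 small ones (2 knockout, 3 wild type, the largest of 14700549). Sample titles end in 1 of 3 codes, whose meaning is not given. Libraries with the same code but different genotype are always of different size class. Transcripts of Emx2, the check of the labels, stood at 146, 129, 109, 137 and 94.6 CPM in knockout libraries 1 to 5 and 207, 179, 175, 182 and 186 CPM in wild-type libraries 1 to 5. They were lower in every knockout library than in any wild-type library (log2 fold change -0.59 ± 0.11, edgeR adjusted p = 0.00271) but not absent. The labels do not say which part of the gene is deleted, and reads from the remainder would still be counted. Emx2os, whose reads may overlap with it, changed by -0.80 ± 0.09. Among markers of dorsal telencephalon 4 of 5 were higher in the knockout (Emx1, Pax6, Eomes and Tbr1) and Lhx2 did not pass, with none at 0. Markers of subpallium were higher for 4 of 5 and those of choroid plexus, the secretory epithelium of the dorsal midline, lower for 5 of 6, with summed levels of 54.3 to 87.6 CPM in knockout and 247 to 298 CPM in wild type. Of 4 markers each for blood, endothelium, meninges and microglia, the meningeal gene Dcn alone passed, as lower. The part of these tissues in the results on single neighbours was not tested.

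Changed genes were frequent around Emx2, and they moved in both directions. Of the 160 members 54 had enough reads to be tested, 46 of them protein-coding. Of these 54, 25 differed between the genotypes at an adjusted p under 0.05 (edgeR quasi-likelihood test, Benjamini-Hochberg over all 18163 genes tested), which is 46.3% of the tested members, while 22.2% of all genes tested differed. As higher in the knockout 10 passed, or 18.5% of tested members (12.9% of all genes tested), and as lower 15, or 27.8% (9.33% of all genes tested). Among called genes the share that was higher was 40.0% for members and 58.1% over all genes. The median log2 fold change of the tested members was -0.06 and that of all genes tested -0.01, but the median size of the change regardless of sign was 0.28 for members and 0.16 for all genes.

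Tested members had more reads than genes in general, and calls were more frequent among genes with more reads. The median of the members' mean CPM (which is not scaled to gene length) was 30.6, against 16.1 over all genes tested. Of the 46 protein-coding members 23 were called, where 26.3% of all protein-coding genes tested were called. Of the 37 protein-coding members with a mean of at least 10 CPM 18 were called, or 48.6%, beside 30.2% of all 9986 protein-coding genes at that level. For 20 of the 54 tested members the 5 knockout and 5 wild-type libraries did not overlap in CPM, 7 with the knockout above and 13 with it below. That is 37.0% of them, beside 16.7% of all genes tested. At least 2-fold changes past the threshold were found in 6 members, or 11.1%, beside 3.0% of all genes tested.

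**Figure D1:**
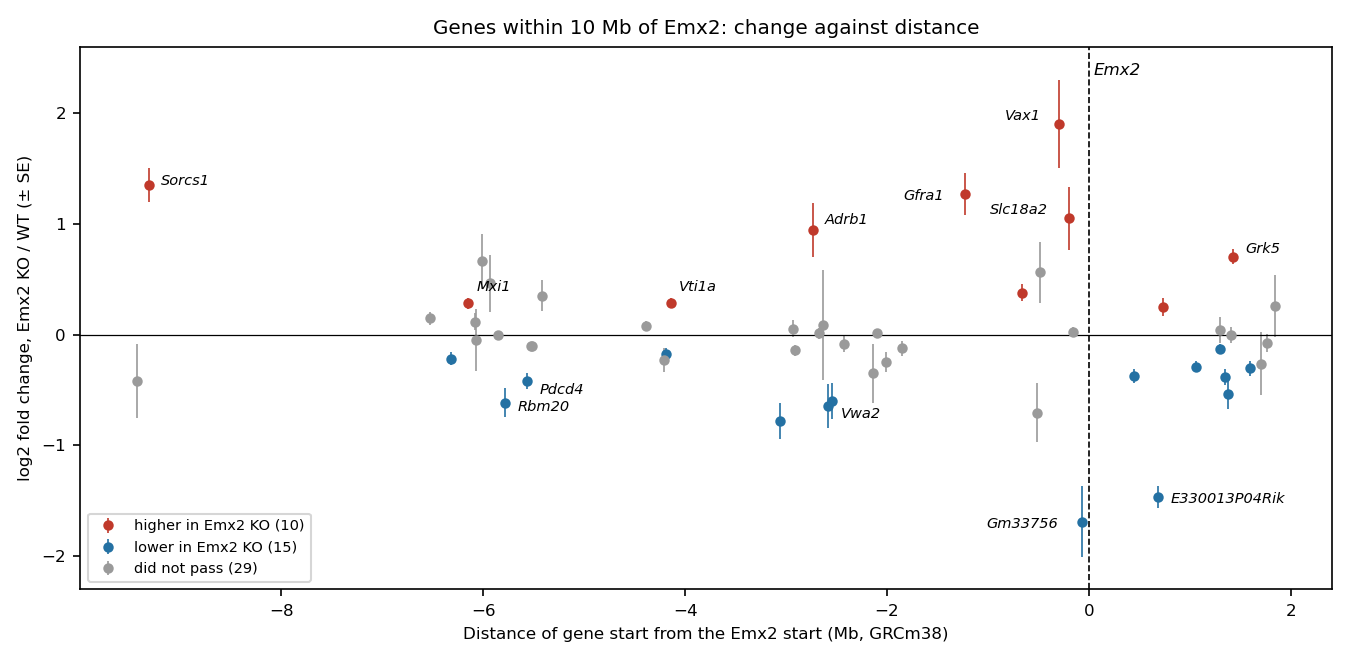
Log2 fold change (Emx2 KO over WT, vertical axis) of the 54 tested members against the distance of the gene start from the Emx2 start in Mb on GRCm38 (horizontal axis, negative before Emx2); bars are standard errors and colours give the edgeR call. The 10 genes that rose and 15 that fell are interleaved, and Vax1 (1.91), Sorcs1 (1.35), E330013P04Rik (-1.46) and Gm33756 (-1.69) lie farthest from 0.

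The share of called genes was highest in the bins next to Emx2. Within 2 Mb before Emx2 5 of 9 tested members were called, 4 higher and 1 lower, and within 2 Mb after it 9 of 14, 2 higher and 7 lower. From 2 to 4 Mb before Emx2 4 of 12 were called, from 4 to 6 Mb 4 of 11, from 6 to 8 Mb 2 of 6 and from 8 to 10 Mb 1 of 2. These bins hold few genes, so a single call moves their share by several percentage points or more. Beyond the window 25.0% of the 508 tested genes on the rest of chromosome 19 were called. In bins of 10 Mb moving away from Emx2 the shares were 26.1% of 119 genes, 22.2% of 54, 22.9% of 48, 16.7% of 72 and 28.4% of 215. On the other chromosomes together 22.3% of 17228 genes were called.

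**Figure D2:**
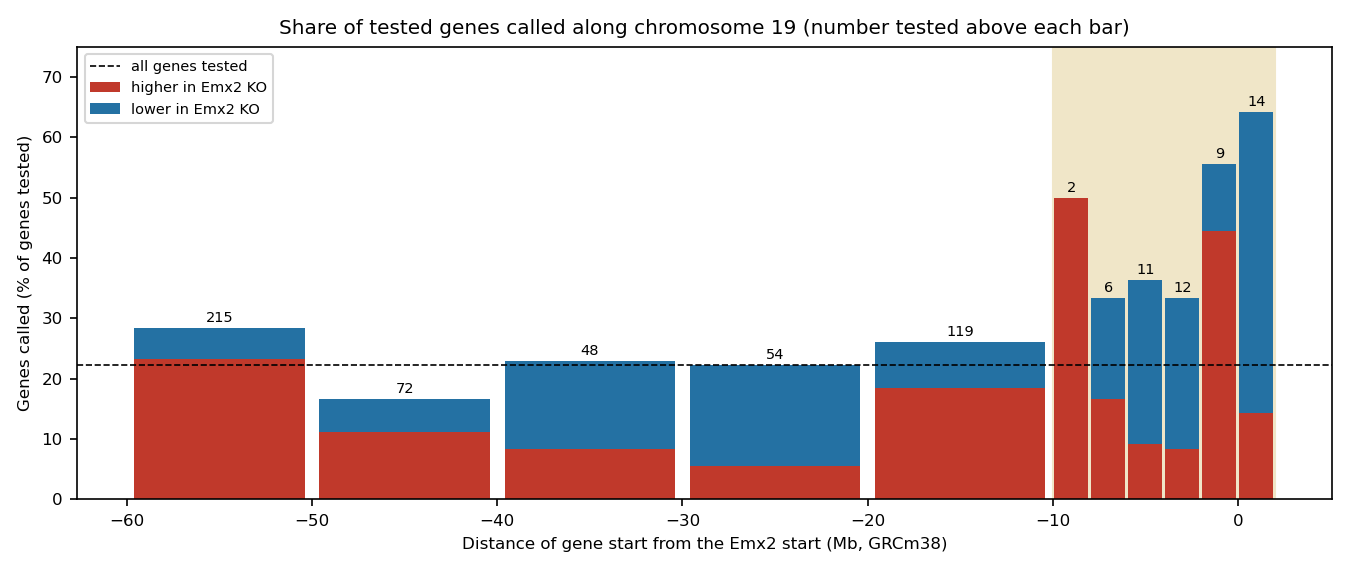
Share of tested genes called (percent, vertical axis) in bins of 2 Mb within the window (shaded) and of 10 Mb along the rest of chromosome 19 (horizontal axis, Mb from the Emx2 start on GRCm38), split into higher and lower in Emx2 KO, with the number of genes tested above each bar and the share over all genes tested (22.2%) as a dashed line. The bins on both sides of Emx2 hold 55.6% and 64.3%.

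Before Emx2 8 members rose and 8 fell of 40 tested, with a median log2 fold change of 0.00. After it 2 rose and 7 fell of 14, with a median of -0.20. The difference between the sides was not tested. Of 27 tested members on the plus strand 13 were called (48.1%), and of 27 on the minus strand 12 (44.4%). Over all genes tested the share was 22.2%.

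At the edge of the window, the tested genes just inside 10 Mb were the processed pseudogene Rpl13a-ps1 (9.43 Mb before Emx2, log2 fold change -0.42 ± 0.33, not passing) and Sorcs1. Just outside were Sorcs3, a relative of Sorcs1, at 11.25 Mb (1.45 ± 0.13) and Itprip at 11.56 Mb (0.17 ± 0.06, not passing). Sorcs3 was higher in every knockout library than in any wild-type one, at 9.36 ± 0.955 against 3.39 ± 0.529 CPM (SD, n = 5), so a changed gene also lay beyond the 10 Mb limit.

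Promoter sequences are shown for the protein-coding members with the largest called changes that the RefSeq table of GRCm38.p6 holds, Vax1 (chr19:59170348-59170647, minus strand), Sorcs1 (chr19:50678597-50678896, minus strand), Gfra1 (chr19:58455349-58455648, minus strand) and Vwa2 (chr19:56874166-56874465, plus strand), and for the 2 members with the smallest p, E330013P04Rik (chr19:60144425-60144724, plus strand) and Grk5 (chr19:60889499-60889798, plus strand), which were added after their values were seen. Each runs 5′ to 3′ on the gene's strand over 300 bases, 250 before the RefSeq start in lower case and 50 after it in capitals. The last 40 bases were found in a GENCODE transcript for each of them except Vax1.
Vax1: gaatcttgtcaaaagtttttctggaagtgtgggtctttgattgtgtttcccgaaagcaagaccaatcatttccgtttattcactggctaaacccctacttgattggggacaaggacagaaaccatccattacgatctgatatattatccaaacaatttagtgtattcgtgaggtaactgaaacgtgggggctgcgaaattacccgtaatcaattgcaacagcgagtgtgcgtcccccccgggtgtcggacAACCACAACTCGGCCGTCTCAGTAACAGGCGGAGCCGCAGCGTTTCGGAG
Sorcs1: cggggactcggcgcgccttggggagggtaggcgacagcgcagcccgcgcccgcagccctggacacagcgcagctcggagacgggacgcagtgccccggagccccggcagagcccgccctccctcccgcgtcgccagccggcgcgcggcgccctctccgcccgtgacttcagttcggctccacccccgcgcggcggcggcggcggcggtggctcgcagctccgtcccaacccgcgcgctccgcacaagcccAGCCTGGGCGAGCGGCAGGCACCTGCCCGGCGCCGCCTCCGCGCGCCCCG
Gfra1: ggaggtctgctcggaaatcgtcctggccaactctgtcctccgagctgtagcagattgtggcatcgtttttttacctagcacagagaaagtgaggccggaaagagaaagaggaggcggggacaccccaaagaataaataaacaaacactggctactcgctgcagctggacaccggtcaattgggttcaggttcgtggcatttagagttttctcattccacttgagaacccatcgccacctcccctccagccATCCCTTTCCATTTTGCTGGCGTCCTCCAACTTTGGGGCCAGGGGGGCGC
Vwa2: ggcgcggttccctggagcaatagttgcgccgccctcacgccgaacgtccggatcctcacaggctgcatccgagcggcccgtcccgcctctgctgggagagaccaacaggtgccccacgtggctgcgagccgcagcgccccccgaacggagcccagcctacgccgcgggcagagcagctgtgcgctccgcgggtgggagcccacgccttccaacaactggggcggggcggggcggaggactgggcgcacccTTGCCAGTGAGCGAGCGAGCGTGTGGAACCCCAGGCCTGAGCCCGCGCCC
E330013P04Rik: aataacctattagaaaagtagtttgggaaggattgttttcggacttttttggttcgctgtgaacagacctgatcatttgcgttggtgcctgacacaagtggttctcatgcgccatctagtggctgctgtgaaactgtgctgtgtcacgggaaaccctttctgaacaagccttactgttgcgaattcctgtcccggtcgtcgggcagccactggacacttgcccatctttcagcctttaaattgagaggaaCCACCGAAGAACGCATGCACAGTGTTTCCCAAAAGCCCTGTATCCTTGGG
Grk5: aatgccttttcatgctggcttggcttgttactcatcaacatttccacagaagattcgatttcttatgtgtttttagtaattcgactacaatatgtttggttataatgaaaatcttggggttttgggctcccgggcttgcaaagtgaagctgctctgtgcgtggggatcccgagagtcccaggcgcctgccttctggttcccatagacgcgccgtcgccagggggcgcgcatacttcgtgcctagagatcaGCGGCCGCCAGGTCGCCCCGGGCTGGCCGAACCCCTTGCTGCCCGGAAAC
The 6 differ widely in composition. G and C make up 80.7% of the Sorcs1 sequence, which holds 50 CG steps, and 73.3% of that of Vwa2, with 34, but 47.7% of that of Vax1, with 17. E330013P04Rik (48.7%, 11 CG steps), Gfra1 (54.0%, 12) and Grk5 (54.3%, 19) lie near Vax1. Homeodomain proteins bind short sites with a TAAT core, so the motif TAATTA, which reads the same on both strands, was searched. None of the 6 sequences holds it, nor does any of the 60 RefSeq promoters that matched 43 of the 54 tested members. It is present in 2 of the 86 promoters of members, tested or not (2.33%), and in 5.29% of all 32851 RefSeq promoters. No match says only that these letters are not in the window searched. The shorter core TAAT was not searched over the full set of promoters. Of the printed sequences it stands in those of Vax1 and Grk5, and its reverse complement ATTA in those of Vax1 and E330013P04Rik.

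Of 11 listed members with roles in signalling at the cell surface 8 were tested, 4 were higher and 4 did not pass, with a median log2 fold change of 0.58. Sorcs1, a sorting receptor of the VPS10 family found in neurons, lies 9.32 Mb before Emx2 and stood at 34.8, 50.5, 45.0, 45.9 and 33.4 CPM in knockout libraries 1 to 5 and 21.2, 17.1, 15.8, 16.3 and 11.7 CPM in wild-type libraries 1 to 5. The lowest knockout library lay above the highest wild-type one, and the log2 fold change was 1.35 ± 0.15 (edgeR adjusted p = 0.000159).

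Gfra1, the co-receptor through which the growth factor GDNF signals, lies 1.22 Mb before Emx2. It stood at 48.0, 63.8, 59.5, 52.0 and 29.8 CPM in knockout libraries 1 to 5 and 23.1, 21.7, 17.0, 24.4 and 18.6 CPM in wild-type libraries 1 to 5. Knockout library 5 was lowest of its group but still above every wild-type library, and the change was 1.27 ± 0.19 (edgeR adjusted p = 0.000911). Grk5, a kinase that phosphorylates G protein-coupled receptors and so desensitises them, lies 1.43 Mb after Emx2. Its levels were 30.03, 26.8, 29.5, 29.7 and 28.3 CPM in knockout libraries 1 to 5 and 17.0, 20.3, 18.1, 16.5 and 16.8 CPM in wild-type libraries 1 to 5. The groups were tight and far apart (0.70 ± 0.07, edgeR adjusted p = 2.96e-05), with a difference 1.63-fold on the linear scale. The gene of the beta-1 adrenergic receptor, Adrb1, also rose, at a low level (1.92 ± 0.332 against 0.954 ± 0.33 CPM, SD, n = 5, log2 fold change 0.95 ± 0.25). The alpha-2A adrenergic receptor gene Adra2a (0.35 ± 0.14), Dusp5, a phosphatase of ERK kinases (0.46 ± 0.26), the Ras pathway scaffold gene Shoc2 (-0.10 ± 0.04) and the attractin relative Atrnl1 (-0.12 ± 0.07) did not pass.

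**Figure D3:**
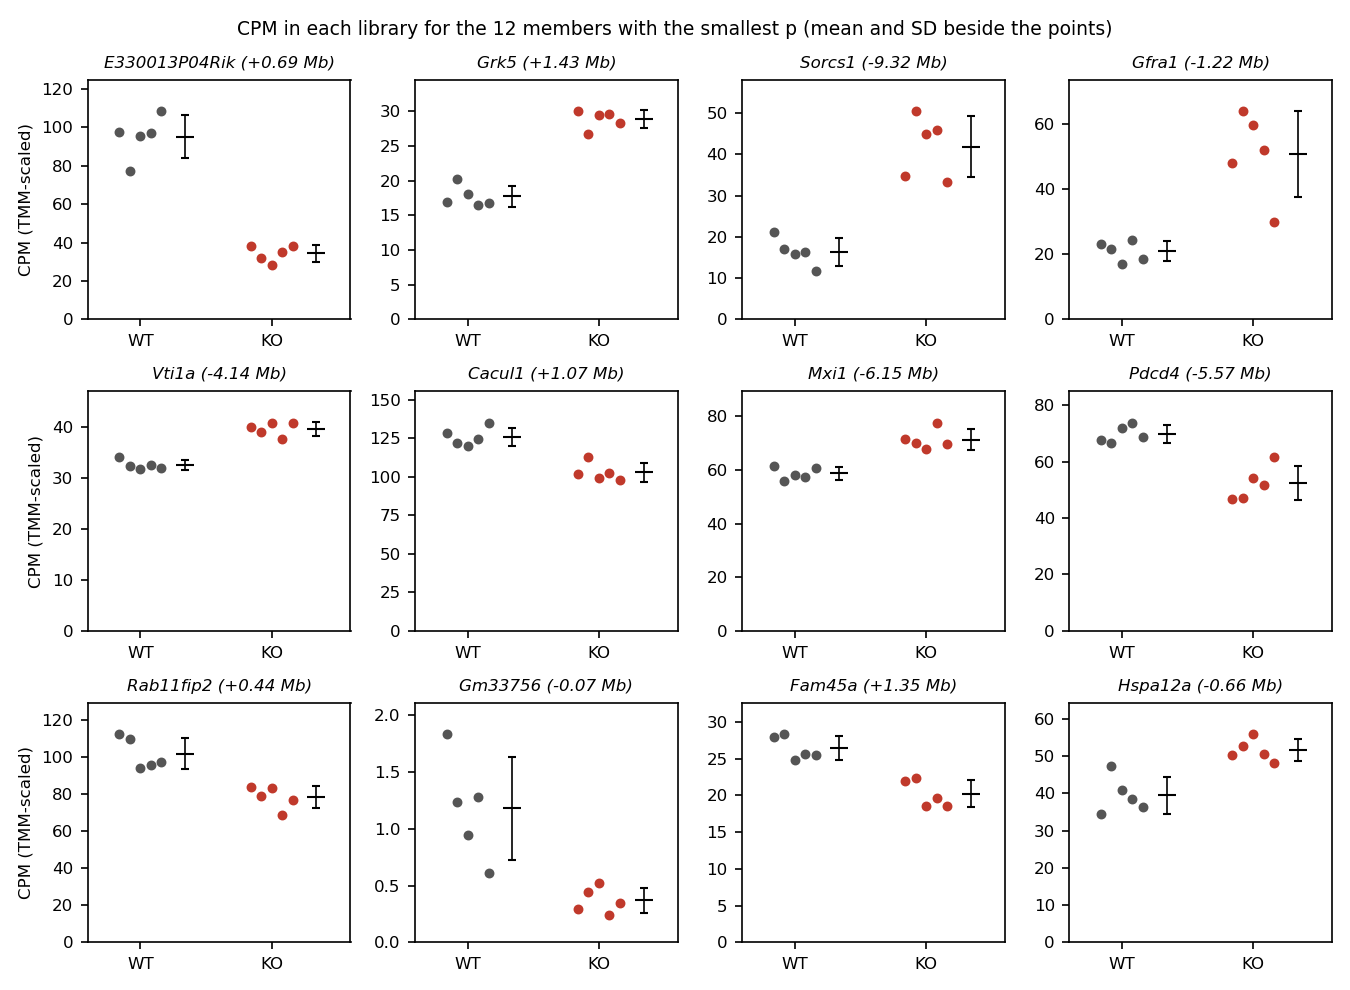
CPM (TMM-scaled, vertical axes from 0) in each of the 5 WT and 5 Emx2 KO libraries for the 12 members with the smallest p, with mean and SD beside the points and the distance from Emx2 in each title. The genotypes do not overlap in any of the 12 panels, and the knockout points spread over the widest CPM range for Gfra1 and Sorcs1 among the 12, from 29.8 to 63.8 and from 33.4 to 50.5 CPM.

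The protein-coding genes just before Emx2 included the developmental regulator Vax1, a homeobox gene of the ventral forebrain and optic stalk. Vax1 lies 0.29 Mb before Emx2 and stood at 6.92, 10.4, 13.96, 6.01 and 2.49 CPM in knockout libraries 1 to 5 and 2.00, 3.05, 2.27, 1.84 and 1.32 CPM in wild-type libraries 1 to 5. Knockout libraries 1 to 4 lay above all wild-type libraries, but knockout library 5 lay below wild-type library 2. Vax1 rose by 1.91 ± 0.40 on the log2 scale (edgeR adjusted p = 0.00614), the largest rise among the 54 tested members. Slc18a2, the vesicular transporter that packs monoamines, lies 0.20 Mb before Emx2. It was at 21.6, 36.4, 45.7, 22.6 and 16.5 CPM in knockout libraries 1 to 5 and 12.3, 19.8, 13.2, 12.6 and 10.8 CPM in wild-type libraries 1 to 5. The groups overlapped, and the change was 1.05 ± 0.28 (edgeR adjusted p = 0.0244). That call was lost when any of 5 libraries was left out (adjusted p 0.0531 to 0.0593). Shtn1, which encodes shootin 1, a protein of axon outgrowth, was higher on average but overlapped widely (26.7 ± 5.71 against 17.8 ± 7.66 CPM, SD, n = 5, 0.56 ± 0.28, edgeR adjusted p = 0.186).

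These 3 genes and Gfra1 varied between libraries of the same genotype, and so did markers of the subpallium, the ventral telencephalon. The summed level of Dlx1, Dlx2, Gsx2, Gad1 and Nkx2-1 was 205, 279, 366, 183 and 85.0 CPM in knockout libraries 1 to 5 and 34.6, 149, 58.2, 50.5 and 25.1 CPM in wild-type libraries 1 to 5, with none of the 5 at 0. Knockout library 3 was the highest of its group for that sum, Vax1, Slc18a2 and Shtn1, and knockout library 5 the lowest for that sum, Vax1, Slc18a2 and Gfra1. In wild type, library 2 was the highest for that sum, Vax1, Slc18a2 and Shtn1. Not all 4 genes followed that order. Gfra1 was highest in knockout library 2 (63.8 CPM) and wild-type library 4 (24.4 CPM), and Shtn1 was lowest in knockout library 1 (22.1 CPM). The part of subpallial cells in the change of these genes was not tested, and in bulk tissue more cells of a type and more RNA per cell cannot be told apart.

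**Figure D4:**
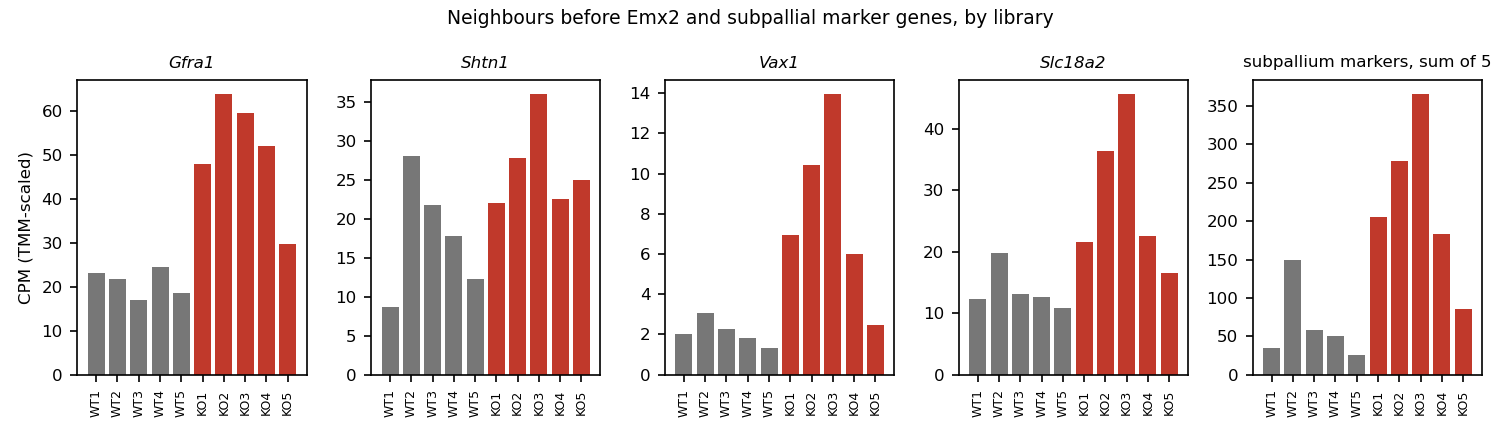
CPM (TMM-scaled, vertical axes from 0) of Gfra1, Shtn1, Vax1, Slc18a2 and the sum of 5 subpallial marker genes in each library (WT1 to WT5 in grey, KO1 to KO5 in red). KO3 is highest and KO5 lowest among the knockout libraries for Vax1, Slc18a2 and the marker sum, at 13.96 and 2.49 CPM for Vax1.

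Pdzd8, which encodes a lipid transfer protein of the endoplasmic reticulum, is the nearest tested protein-coding gene before Emx2, at 0.16 Mb. It stood at 128, 128, 120.1, 129 and 119 CPM in knockout libraries 1 to 5 and 127, 123, 115, 125 and 124 CPM in wild-type libraries 1 to 5. The groups overlapped throughout (log2 fold change 0.03 ± 0.04, edgeR adjusted p = 0.706). Next come Slc18a2, Vax1 and Shtn1, given above, Eno4, a sperm enolase gene (-0.71 ± 0.27, adjusted p = 0.0809), and Hspa12a. The last, of a divergent branch of the HSP70 family, rose: its levels were 50.2, 52.8, 55.8, 50.5 and 48.2 CPM in knockout libraries 1 to 5 and 34.6, 47.4, 40.8, 38.3 and 36.4 CPM in wild-type libraries 1 to 5, without overlap (0.38 ± 0.08, edgeR adjusted p = 0.00422). Eno4 did not pass with all libraries but did without knockout replicate 3 (-0.96, adjusted p = 0.0107).

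Long noncoding RNA genes beside Emx2 gave the deepest decreases. E330013P04Rik, a lincRNA 0.69 Mb after Emx2, stood at 38.3, 32.1, 28.3, 34.9 and 38.4 CPM in knockout libraries 1 to 5 and 97.4, 77.4, 95.4, 97.1 and 108 CPM in wild-type libraries 1 to 5. The highest knockout library lay far below the lowest wild-type one, and the change was -1.46 ± 0.10 (edgeR adjusted p = 3.46e-06, the smallest of the members). The large libraries alone gave -1.45, the small ones -1.50, and title codes 241022 and 14922 alone gave -1.31 and -1.53. Gm33756, a lincRNA 68.6 kb before Emx2 and the nearest tested member, was scarce. It stood at 0.295, 0.446, 0.520, 0.246 and 0.346 CPM in knockout libraries 1 to 5 and 1.83, 1.23, 0.942, 1.28 and 0.610 CPM in wild-type libraries 1 to 5. The groups did not overlap (-1.69 ± 0.32, edgeR adjusted p = 0.00245), but at this level few reads stand behind each value. The other 6 tested members that are not protein-coding, 3 of them pseudogenes, did not pass.

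After Emx2 the nearest tested protein-coding gene is Rab11fip2, 0.44 Mb away, whose product recycles endosomes with RAB11. It stood at 84.2, 79.2, 83.5, 69.0 and 77.1 CPM in knockout libraries 1 to 5 and 113, 109.7, 94.3, 96.2 and 97.5 CPM in wild-type libraries 1 to 5. All knockout libraries lay below all wild-type ones (-0.37 ± 0.07, edgeR adjusted p = 0.00166). Fam204a rose by a small amount (0.25 ± 0.08, adjusted p = 0.0408), a call lost without any of 8 libraries (adjusted p 0.0697 to 0.108).

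Cacul1, which promotes CDK2 activity, stood at 102, 113, 99.3, 102 and 98.1 CPM in knockout libraries 1 to 5 and 128, 122, 120.0, 125 and 135 CPM in wild-type libraries 1 to 5. The groups were separate (-0.29 ± 0.05, edgeR adjusted p = 0.00104). Next to it Nanos1, an RNA-binding regulator, did not differ beyond its spread (0.04 ± 0.12, adjusted p = 0.868), and Eif3a, a subunit of a translation initiation factor, was lower by little (-0.13 ± 0.04, adjusted p = 0.0378), a call lost without any of 7 libraries (0.0561 to 0.0926). Fam45a stood at 22.0, 22.4, 18.6, 19.7 and 18.6 CPM in knockout libraries 1 to 5 and 28.0, 28.3, 24.8, 25.7 and 25.5 CPM in wild-type libraries 1 to 5, again without overlap (-0.38 ± 0.07, edgeR adjusted p = 0.00271). Close by, Sfxn4, of the mitochondrial sideroflexin family, fell (-0.53 ± 0.14), Prdx3, a mitochondrial peroxiredoxin, did not pass (-0.0042 ± 0.07) and Grk5 rose. The zinc finger gene Zfp950 fell (-0.31 ± 0.07), although such genes have close copies that can share reads, and Csf2ra, a cytokine receptor subunit, did not pass (-0.07 ± 0.08).

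Of 7 genes of the cell cycle, DNA and cell death 1 rose, 3 fell and 3 did not pass (the median log2 fold change was -0.01). The share called was 57.1%, beside 22.2% of all genes tested. Cacul1 is given above. Pdcd4, an inhibitor of translation initiation, was at 46.9, 47.1, 54.0, 51.7 and 61.7 CPM in knockout libraries 1 to 5 and 67.5, 66.5, 72.0, 73.7 and 68.9 CPM in wild-type libraries 1 to 5. It fell without overlap (-0.42 ± 0.07, edgeR adjusted p = 0.00125). Mxi1, which binds MAX and opposes MYC, stood at 71.5, 70.2, 67.7, 77.7 and 69.7 CPM in knockout libraries 1 to 5 and 61.6, 55.8, 58.1, 57.6 and 60.6 CPM in wild-type libraries 1 to 5. It was higher in every knockout library (0.28 ± 0.05, edgeR adjusted p = 0.00106). The cohesin subunit gene Smc3 (-0.01 ± 0.04) and the DNA repair gene Dclre1a (0.05 ± 0.08) did not pass.

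Of 12 genes of membrane traffic and cytoskeleton 3 rose, 5 fell and 4 did not pass. The share called was 66.7%, beside 22.2% of all genes tested. Vti1a, a SNARE protein of endosomal and Golgi transport, was at 40.0, 39.1, 40.9, 37.6 and 40.8 CPM in knockout libraries 1 to 5 and 34.2, 32.3, 31.7, 32.5 and 32.0 CPM in wild-type libraries 1 to 5. The gap between the groups was small but clear of both spreads (0.28 ± 0.05, edgeR adjusted p = 0.000979). Zdhhc6, a palmitoyltransferase, changed by -0.17 ± 0.05 (adjusted p = 0.0297, and 0.0526 to 0.0701 without any of 5 libraries), the actin-binding adducin gene Add3 by -0.22 ± 0.06 and Afap1l2 by -0.60 ± 0.16. Ablim1 (-0.08 ± 0.07), Bbip1 (-0.11 ± 0.04) and Ccdc186 (0.01 ± 0.05) did not pass.

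Of 5 RNA and translation genes 2 fell and 3 did not pass, a share called of 40.0% beside 22.2% of all genes tested. Besides Eif3a, the splicing regulator gene Rbm20 stood at 62.0, 47.5, 42.5, 54.3 and 70.0 CPM in knockout libraries 1 to 5 and 79.0, 71.5, 87.2, 89.0 and 96.5 CPM in wild-type libraries 1 to 5. It fell without overlap (-0.62 ± 0.13, edgeR adjusted p = 0.00682). Smndc1, a spliceosome gene (0.12 ± 0.08), and Tdrd1 of the germline piRNA pathway (0.09 ± 0.50) did not pass. For Trub1, a pseudouridine synthase gene, the groups did not overlap either, but it did not pass (-0.25 ± 0.09, adjusted p = 0.0738). Of 6 tested genes of metabolism and mitochondria Sfxn4 alone passed (16.7%, beside 22.2% of all genes tested). Gpam (0.08 ± 0.05), Acsl5 (-0.23 ± 0.11) and Xpnpep1 (0.15 ± 0.06) did not pass. Outside the role groups Vwa2, an extracellular matrix gene, fell (-0.64 ± 0.20, adjusted p = 0.0334), a call lost without any of 6 libraries (0.0588 to 0.0798).

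The other 106 members were too scarce to test, and 30 of them had no read in any library. The 19 untested protein-coding members reached at most 0.891 CPM in any library. They include Ins1, an insulin gene, and the pancreatic lipase gene Pnlip, both with 0 reads, and Kcnk18 and Prlhr, a potassium channel and a prolactin-releasing hormone receptor gene, with 14 and 10 reads over all libraries.

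Exons of 17 tested members, 9 of them called, overlap those of another annotated gene in GENCODE. The 9 are Sorcs1, Mxi1, Zdhhc6, Gfra1, Hspa12a, Slc18a2, Fam204a, Cacul1 and Fam45a, each with a partner on the opposite strand. Since the sources used here give no strand setting for the counts, reads of the partners cannot be told apart. Of the 37 tested members without such an overlap 16 were called, 4 higher and 12 lower.

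Direction was compared in sets of libraries that share none. All 25 called members had the same sign in the large libraries alone, in the small libraries alone and within each of title codes 241022 and 14922, but those libraries are also part of the test that called them. Over the 52 members tested in both size classes, called or not, 40 (76.9%) kept 1 sign across large and small libraries, beside 66.8% of all genes. Between title codes 241022 and 14922 40 of 55 (72.7%) had the same sign, beside 68.4% of all genes. Calls in the large libraries alone numbered 21 members, 12 higher and 9 lower (16.4% of all genes tested there were called), and 18 of these (85.7%) had the same sign in the small libraries, beside 90.4% of all genes called there. In the small libraries alone 6 members were called (3.56% of all genes), with title code 241022 alone 6 (2.85% of all genes) and with title code 14922 alone 9 (8.96% of all genes). Rab11fip2, Cacul1, Grk5 and E330013P04Rik were called in both size classes, or 7.69% of the 52 members, beside 2.65% of all genes. In both title codes 241022 and 14922 E330013P04Rik alone was called, or 1.82% of the 55 members, beside 1.53% of all genes. With the title code as a block over all 10 libraries 26 members were called (22.1% of all genes), and with the size class as a block 25 (20.5%).

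**Figure D5:**
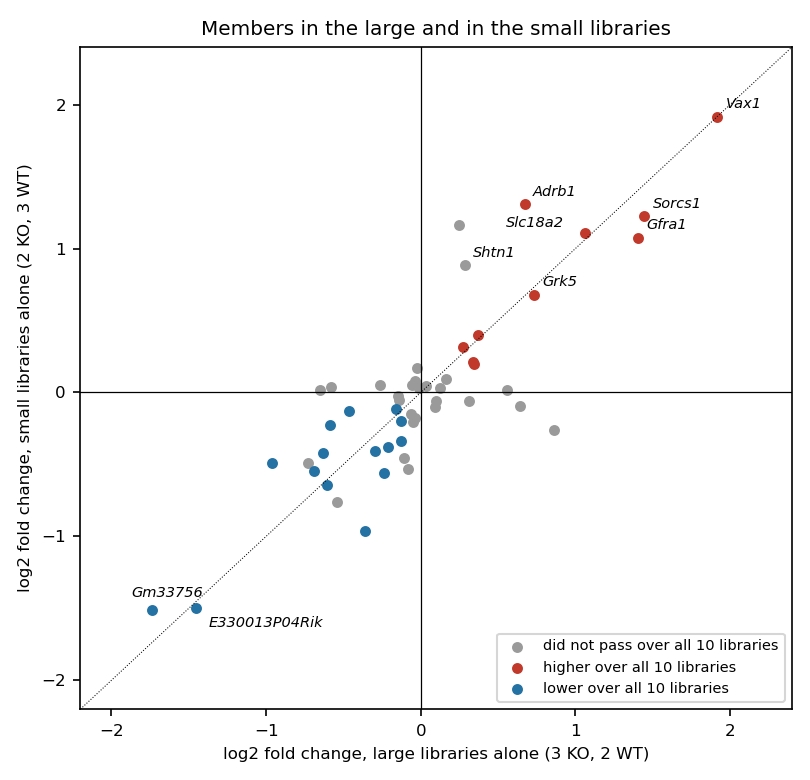
Log2 fold change (Emx2 KO over WT) of the 52 members tested in both size classes, in the large libraries alone (horizontal axis) and in the small libraries alone (vertical axis); colours give the call over all 10 libraries and the dotted line marks equal values. Vax1 (1.92 and 1.92) and E330013P04Rik (-1.45 and -1.50) lie near the line, and the 3 genes called in the large libraries with the opposite sign in the small ones (Smndc1, Dusp5 and Atrnl1) did not pass over all libraries.

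A difference of the genotype effect between the size classes passed for 0 of the 54 members (edgeR interaction, smallest adjusted p = 0.23), and for 0.0385% of all genes. At an unadjusted p under 0.05 stood 10 members (18.5%), beside 9.7% of all genes. All small knockout and large wild-type libraries carry title code 14922, and all large knockout and small wild-type libraries carry the other codes. A difference of the genotype effect between size classes and a difference between code 14922 and the others therefore cannot be told apart in this test. Among the 5 knockout libraries, library 5 was the lowest of its group for 5 of the 10 that rose and the highest for 6 of the 15 that fell. Library 3 was the highest for 5 of the 10 and the lowest for 5 of the 15. These ranks were not tested.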

How the data were processed

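The authors deposited raw read counts per Ensembl gene for 5 Emx2 KO and 5 WT cortex libraries. The submitters' processing notes name STAR 2.7.8a, featureCounts 1.6.3-p1, bcl2fastq 2.20, and as builds rn6 and GRCm39; strand setting and annotation release are not given in the sources used here. Of 56748 identifiers 52073 matched GENCODE M21 (GRCm38), from which distances and exon overlaps were taken. The 4675 others could not be placed, and some genes are not reported here.

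Genes passing filterByExpr (minimum count 10) were scaled by TMM and tested with edgeR 4.0.16 (R 4.3.3), a robust, two-sided quasi-likelihood F test on genotype alone, adjusted over 18163 genes by Benjamini-Hochberg. CPM values use TMM-scaled totals, and errors are SD with n = 5, or SE of log2 fold changes derived from F. No 2 replicates were alike enough to be 1 library (chi-square per gene 9.06 to 23.7). The test was checked on simulated counts. Members, lists and role groups were chosen with earlier results of these data known. Named were called members and the 6 tested protein-coding members nearest to Emx2 on each side, and other members of role groups are listed with their values. Alternatives were other scalings, filters, tools (DESeq2 1.42.0, limma 3.58.1), blocks, subsets, windows and each library left out. Promoters are from RefSeq (GRCm38.p6).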

Additional observations from a re-analysis of the deposited data

Results flagged for a closer look

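Among 30 named members and 2 genotypes, 4 of 60 groups of 5 libraries held 1 library that stood apart, judged by its gap to the nearest library as a share of the group's range (limit 0.71); chance gives about 1 in 20. Eno4 was highest in knockout library 3 (ratio 0.775, 2.75 CPM against 1.43 in the next). Slc18a2 was highest in wild-type library 2 (0.738, 19.8 against 13.2 CPM), and Fam204a in wild-type library 1 (0.788, 33.3 against 26.9 CPM). Cacul1 was highest in knockout library 2 (0.716, 113 against 102 CPM).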

How the results depend on the processing

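No paired analysis was possible because the labels give no replicate numbers that pair the genotypes. Of the 25 called members 19 passed with the same sign in all 20 fits of 9 or 10 libraries. No named gene changed sign against the main fit where it passed in either of the 2 fits. Genes that passed in neither could change sign, as Rpl13a-ps1 did (-0.42 over all libraries, 0.36 with title code 241022 alone). Leaving out 1 library gave 21 to 24 called members, 8 to 10 higher and 12 to 15 lower, and 3072 to 3979 genes in all. Calls were lost for Slc18a2 (without knockout library 2 or wild-type 1, 3, 4 or 5), Zdhhc6 (knockout 1, 3 or 4, wild-type 1 or 5), Vwa2 (knockout 2, 4 or 5, wild-type 1, 4 or 5), Eif3a (knockout 1, 3 or 4, wild-type 1 to 4) and Fam204a (all but knockout 2 and wild-type 1), and Gm33756 came under the filter without wild-type 3 or 4. Zdhhc6 was also lost with a size block or no filter, Vwa2 and Eif3a with a code block or Y-linked expression as a covariate, Slc18a2 with no filter or that covariate, Eif3a with no filter, and Fam204a with upper-quartile or total-count scaling. Gm33756 was not tested at a minimum count of 30. Small libraries alone gave 6 members (1 higher, 5 lower) and 626 genes, title code 241022 alone 6 (2 and 4) and 530, and title code 14922 alone 9 (5 and 4) and 1710. The large libraries alone gave 21 members, 12 higher and 9 lower, so that 57.1% of calls were higher, beside 40.0% over all libraries. Fewer samples enter these fits. An adjusted p under 0.01 left 16 members (9 lower) and 2181 genes, and at least 1.5-fold left 12 (6 and 6) and 1212. Windows of 2 Mb and 20 Mb held 14 (6 and 8) and 56 (32 and 24) called members. In the 2 Mb window these were 5 of 9 tested genes before Emx2 and 9 of 14 after it. The stretch from 10 to 20 Mb, which the 20 Mb window adds, held 31 called of 119 tested genes. That share, 26.1%, lay near the 22.2% of all genes tested, so the larger count came with more genes tested. Without exon overlap there were 16 (4 higher). Of 54 tested members, upper-quartile scaling called 28 (9 and 19), DESeq2 28 (10 and 18) and limma-voom 27. Of all genes tested the same fits called 22.8%, 24.9% and 24.3%. The edgeR test without its robust option, added after the data were seen, gave 25. Low counts limit Gm33756 and the 106 untested members.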
